A study of Drosophila melanogaster with 3 samples.

Results

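Genes that control and carry out protein synthesis were examined for Smox binding in the white prepupa of Drosophila melanogaster. The 9 genes, of 13945 protein-coding genes on the nuclear chromosomes, were the translation regulators Lk6, larp and Thor, the cap-complex genes eIF4E1, eIF4G1 and eIF4A, and the elongation factor genes eEF1alpha1, eEF1gamma and eEF2. They were selected on values of the same data, since strong Smox peaks at or near Lk6, larp and eEF1gamma had been seen before the set was made, so the ranks of peaks in the following account are a description and no test was run on them. Regions were collected from each gene body with 5 kb either side.

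Smox is the fly SMAD protein that carries Activin-type signals to the nucleus. Chromatin came from whole white prepupae, males and females together and of unstated age, of 1 transgenic line that stably expressed Smox with GFP at its C terminus. It was sonicated, fragments of 200 to 800 bp were taken, and Smox was precipitated through its GFP tag with an anti-GFP antibody (another label field names Smox as the antibody target). There was 1 group of 3 biological replicates and no second condition. Each replicate and the pooled data gave a list of 30000 regions. The pooled list is labelled as peaks and background, the input for the reproducibility analysis, so its weaker regions can be background. The authors' reproducibility-thresholded list held 6622 regions, which were the strongest 6622 of the pooled list. Rank 1 is the region with the highest score in a list. The lists hold no read counts, so depth is unknown, and they hold no expression, so neither the stage nor the activity of a gene could be checked. In whole animals, strong occupancy in few cells and weak occupancy in many cannot be told apart.

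Translation of most mRNAs starts when eIF4E, the cap-binding protein, joins the scaffold eIF4G and the RNA helicase eIF4A at the 5′ cap. Thor is the fly 4E-BP, which binds eIF4E and keeps it from eIF4G; Lk6 is the fly Mnk-type kinase that phosphorylates eIF4E; larp encodes a La-related RNA-binding protein whose mammalian counterpart LARP1 binds mRNAs of the translation machinery. During elongation eEF1alpha brings aminoacyl-tRNA to the ribosome, eEF1gamma is a subunit of its nucleotide exchange complex, and eEF2 moves the ribosome along the mRNA.

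The sequences around 6 of the summits described here are shown. They were read from the RefSeq copy of Release 6 (dm6) and run 5′ to 3′ on the strand of the gene. Capitals mark matches to 9 elements searched on both strands, which were the SMAD box GTCT, the GC-rich SMAD element GGCGCC, the TATA box TATAAA, the homeodomain core TAATTA, the DRE TATCGATA, the M1BP motif GGTCACAC, the BEAF-32 core CGATA, the GATA site GATAA and the E-box CACGTG. The DRE holds the BEAF-32 core on both strands, and the BEAF-32 core and the GATA site can overlap. The Lk6 window (chr3R:11760980-11761130, minus strand) and the larp window (chr3R:28326525-28326675, minus strand) are centred on the highest-ranked summits in these genes. The window before lncRNA:CR31044 (chr3R:29214360-29214510, plus strand) is that of the strong peak nearest to eEF1gamma. The eEF1gamma window (chr3R:29220048-29220198, plus strand) is centred on a promoter summit of replicate 2. The eEF2 stretch (chr2L:21682140-21682259, minus strand) has its summit at position 101, and the Thor stretch (chr2L:3478502-3478531, plus strand) lies within the 5′ UTR and has its summit at position 16.
Lk6: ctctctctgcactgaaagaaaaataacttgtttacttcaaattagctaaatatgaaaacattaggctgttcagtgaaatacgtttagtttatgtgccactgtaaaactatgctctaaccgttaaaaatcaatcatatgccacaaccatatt
larp: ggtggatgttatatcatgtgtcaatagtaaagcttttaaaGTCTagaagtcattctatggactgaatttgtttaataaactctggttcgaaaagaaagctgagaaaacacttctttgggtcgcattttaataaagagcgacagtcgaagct
lncRNA:CR31044: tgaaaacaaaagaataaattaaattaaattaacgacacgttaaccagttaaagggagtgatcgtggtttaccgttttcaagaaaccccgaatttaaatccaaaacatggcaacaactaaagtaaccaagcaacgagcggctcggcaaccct
eEF1gamma: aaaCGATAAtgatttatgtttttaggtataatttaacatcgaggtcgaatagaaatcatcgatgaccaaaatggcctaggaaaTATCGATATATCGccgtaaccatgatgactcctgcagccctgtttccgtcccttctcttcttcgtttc
eEF2: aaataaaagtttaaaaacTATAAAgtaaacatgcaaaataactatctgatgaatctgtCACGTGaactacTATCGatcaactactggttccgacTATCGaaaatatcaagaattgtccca
Thor: caacgaaatacaaacaacgcagtttgtgta
Within 75 bp either side of the summit, the Lk6 and CR31044 windows held none of the 9 elements, as did 18.7% of the 6600 thresholded windows. Within 150 bp, the Lk6 summit had 2 SMAD boxes and the CR31044 summit had 1 TATA box, and 4.73% of all windows then held none. The larp window held 1 SMAD box, at position 41. The eEF1gamma window held the DRE at position 84, which contains the BEAF-32 cores at positions 84 and 87, and a further core directly after it at position 92. It also held a BEAF-32 core at position 4 that overlaps a GATA site at position 5. The eEF2 stretch held a TATA box at position 19, an E-box at position 59 and BEAF-32 cores at positions 71 and 95. A match describes the letters in a window and shows no binding site.

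Smox regions lay at or near most of the 9 genes, but only at Lk6 and larp were they among the strongest of the genome. A thresholded summit lay in the gene or within 5 kb for 6 of the 9 genes, where 42.9% of all protein-coding genes had one. Counting summits no more than 1 kb from a transcription start site (TSS), 5 of 9 genes were bound (Lk6, larp, eIF4A, eEF1alpha1 and eEF2), beside 18.9% of all protein-coding genes. With the weaker regions of the pooled list included, 7 of 9 met the same distance, against 37.7% of all protein-coding genes. Because the genes were picked with these ranks known, nothing is read from those shares. At 500 bp the count was 4 of 9, without Lk6, whose strongest summit lay 976 bp from a TSS. No share of all protein-coding genes was formed at that distance. Among the strongest 6622 regions of replicates 1, 2 and 3, 45.9%, 45.1% and 47.7% of all protein-coding genes had a summit in the gene or within 5 kb. In each replicate 7 of the 9 genes had one. They were not the same 7, since eIF4E1 was counted in replicate 1 alone and Thor in replicates 2 and 3, and 6 genes had one in all 3. By the 1 kb measure 5, 6 and 6 genes were bound in replicates 1, 2 and 3, beside 20.7%, 20.6% and 22% of all protein-coding genes.

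The windows of the 9 genes held 15 thresholded summits, or 0.96 per 10 kb, against 0.493 per 10 kb of the nuclear genome. The genome value includes sequence far from genes, and the genes were picked with strong peaks known, so nothing is read from the difference. Each of the 15 was overlapped by a region in all 3 replicate lists, and 12 of them by a region among the strongest 6622 of all 3. The thresholded list was itself made by agreement between replicates. The share of all its regions with such overlap was not formed, so these counts do not set the 15 apart. None of the 15 summits lay in a coding exon, and 9 lay inside 1 of the 9 genes. The nearest TSS of any annotated gene belonged to 1 of the 9 genes for 10 summits and to another gene for 5. Just inside the threshold lay a region in the eIF4A window at pooled rank 6207, 53 bp downstream of a chic TSS. Just outside it lay regions in the windows of Lk6 (6896), Thor (6900) and larp (7043). The last lay in an intron of Moca-cyp, 4444 bp upstream of larp.

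**Figure D1:**
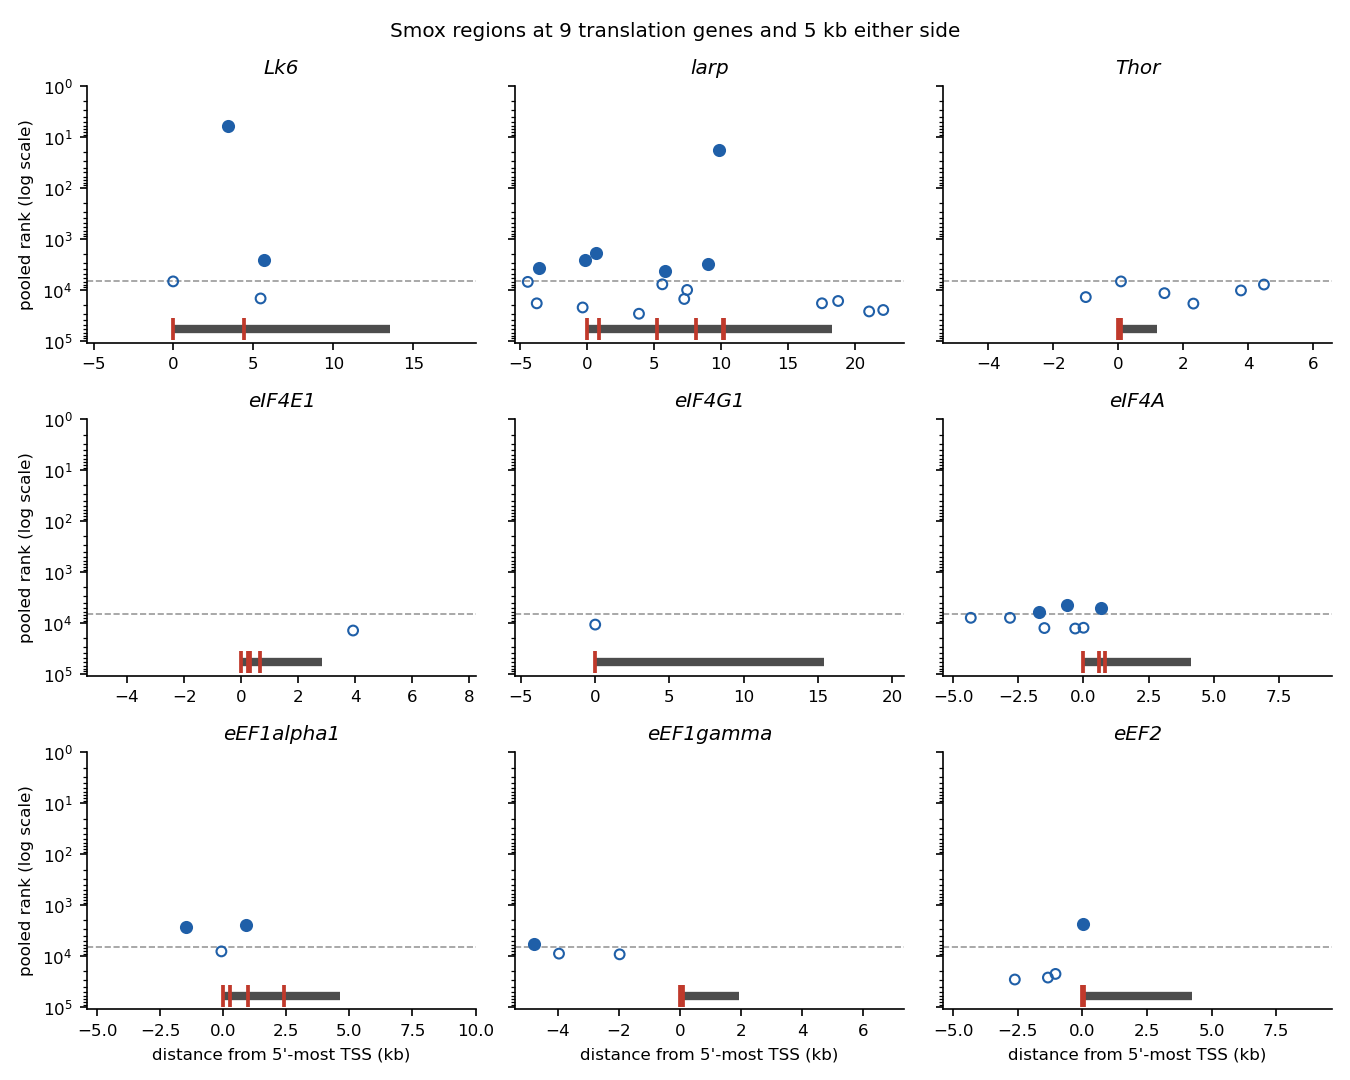
Pooled-list regions at the 9 genes and 5 kb either side. The x axis is the distance in kb of each summit from the TSS at the 5′ end of the gene, in the direction of transcription, and the y axis is the rank in the pooled list on a log scale with the strongest at the top. Filled points are thresholded, open points are weaker, the dashed line is rank 6622, grey bars are gene bodies and red ticks are TSSs. The points of Lk6 and larp near the top have ranks 6 and 18, and the other filled points lie between ranks 1889 and 6207.

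Lk6 (FlyBase gene FBgn0017581; 3R from 11750931 to 11764457 on dm6, minus strand) has 2 annotated TSSs, and its strongest region was rank 6 of the pooled list. The peak spanned 459 bp, from 11760821 to 11761279, with the summit at 11761055, in an intron of the longer transcript and 976 bp upstream of the proximal TSS. In the replicate lists the region ranked 7, 6 and 7 (mean 6.67 ± 0.577, SD, n = 3). All 3 replicates placed it among their 7 strongest regions, and their summits lay within 8 bp of the pooled summit. Ordered by the strongest summit within 1 kb of a TSS, Lk6 came 6th of 2639 bound protein-coding genes.

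The remaining regions of Lk6 were far weaker. A second thresholded summit, in an intron 1276 bp downstream of the proximal TSS, had pooled rank 2646 and ranked 3314, 2005 and 2918 in replicates 1, 2 and 3. At the distal TSS, the start of the long transcript, the pooled summit lay at -22 bp with rank 6896. It was overlapped by rank 17425 in replicate 1, by rank 2807 in replicate 2 and by no region in replicate 3. The intronic site was thus stable across replicates, while only replicate 2 placed the distal promoter among its strongest 6622 regions. The next thresholded summit outside the window lay 9632 bp upstream of Lk6, inside the neighbouring zinc finger gene l(3)neo38.

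The gene larp (FBgn0261618; 3R from 28318162 to 28336440, minus strand) has 6 TSSs and carried 6 thresholded summits in its window, a number reached by 2.08% of all protein-coding genes. At 18279 bp it was the longest of the 9 genes, against a median of 2166 bp for all protein-coding genes, and longer windows have more room for summits. Per 10 kb it held 2.12 summits, as many as the much shorter eIF4A window. The strongest had pooled rank 18, in an interval of 496 bp from 28326334 to 28326829, and ranked 20, 22 and 16 in the replicates (mean 19.3 ± 3.06, SD, n = 3). Its summit at 28326600 lay deep inside the gene, 9840 bp from the 5′ end, in an intron of 5 transcripts and 336 bp upstream of the fifth TSS, from which shorter transcripts start.

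The other thresholded summits of larp lay upstream or downstream of its TSSs, except the sixth, which lay nearer to another gene. Whether they lay closer to its TSSs than other positions in the gene was not tested. The summit 241 bp upstream of the second TSS had pooled rank 1889 and ranked 1855, 2217 and 2194. The summit 143 bp upstream of the first TSS had rank 2627 and ranked 4026, 2584 and 2314, in an interval of only 168 bp. Intronic summits 854 bp and 593 bp downstream of the fourth and the third TSS had ranks 3095 and 4312. In the replicates the first of these ranked 2445, 4826 and 4589, and the other ranked 4731, 5960 and 4286. Every replicate thus held all of these sites among its strongest 6622. The sixth summit, at rank 3837, lay 3571 bp upstream of larp but at -246 bp from the TSS of Gfat2, which encodes an enzyme of hexosamine synthesis, and ranked 3315, 3552 and 4869.

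Thor (FBgn0261560; 2L from 3478434 to 3479612, plus strand) had no thresholded summit in its window. Its strongest pooled region had rank 6900, just below the threshold, with the summit at 3478517 in the 5′ UTR and 5 bp upstream of the second TSS. The replicates ranked it 6784, 9202 and 14579 (mean 10188 ± 3990, SD, n = 3), so none placed it among the strongest 6622 and replicate 3 ranked it lowest. Its −log10 q-value was 2.09 in the pooled list and 2.31, 1.32 and 0.256 in replicates 1, 2 and 3. The other 5 pooled regions in the Thor window had ranks from 7951 to 18810.

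**Figure D2:**
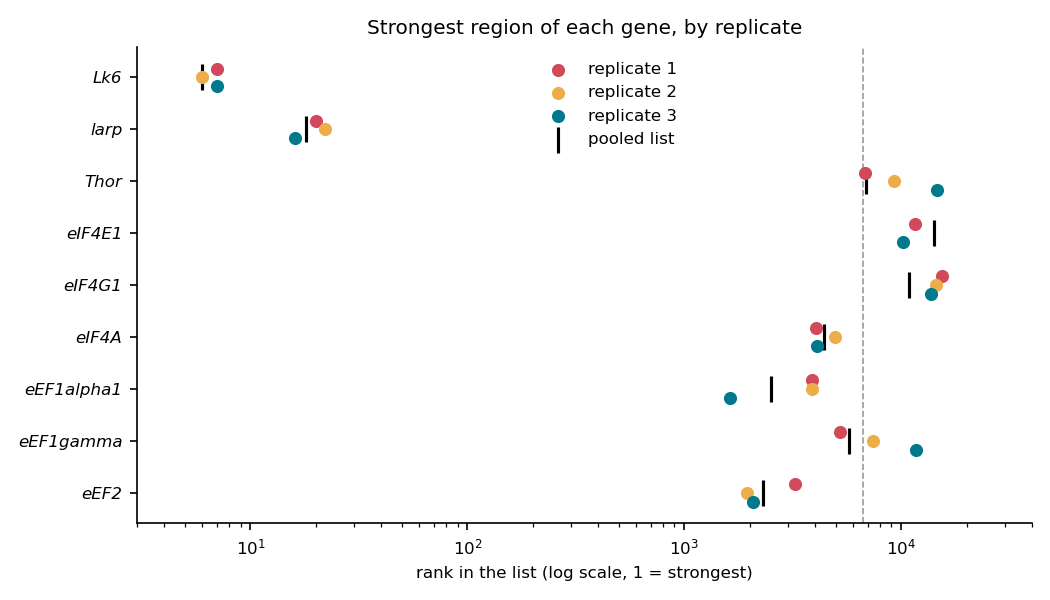
Rank of the strongest pooled region of each of the 9 genes in the pooled list (black bar) and in replicates 1, 2 and 3 (points), on a log scale with rank 1 the strongest. The dashed line is rank 6622, and eIF4E1 has no point for replicate 2. Lk6 and larp sit between ranks 6 and 22 in every list, the other genes between 1624 and 15470.

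The windows of the cap-binding protein gene and of the scaffold gene held no thresholded summit, while that of the helicase gene did. At eIF4E1 (FBgn0015218; 3L from 9399618 to 9402460, minus strand) the window held a single pooled region, at rank 14148, and its summit lay past the end of the gene, in a coding exon of CG4080. It was overlapped by ranks 11564 and 10127 in replicates 1 and 3 and by no region in replicate 2. Its −log10 q-value in the pooled list was 0.47. The nearest thresholded summit lay 8495 bp upstream of eIF4E1, outside the window and 83 bp upstream of Cpsf5, a gene of mRNA 3′-end processing. At eIF4G1 (FBgn0023213; 4 from 915297 to 930715, minus strand) the single pooled region was a promoter region, 6 bp downstream of the TSS at rank 10816. The replicates ranked it 15470, 14457 and 13696 (mean 14541 ± 890, SD, n = 3), with the summit of replicate 2 lying 290 bp from the pooled summit. Its −log10 q-value was 0.866 in the pooled list and 0.435, 0.511 and 0.289 in replicates 1, 2 and 3. With such values the eIF4E1 and eIF4G1 regions may be background.

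The helicase gene eIF4A (FBgn0001942; 2L from 5981764 to 5985909, plus strand) had 3 thresholded summits in a window it shares with chic, the profilin gene, which is transcribed the other way. The strongest, at 5981135 with rank 4388, lay between both genes, at -629 bp from the first TSS of eIF4A and at -117 bp from that of chic. It ranked 4051, 4939 and 4105 in the replicates (mean 4365 ± 498, SD, n = 3). The summit at rank 5141 belonged to eIF4A by position, 69 bp downstream of its second TSS, and ranked 6684, 4983 and 5354. The summit at rank 6207 lay 53 bp downstream of a chic TSS and ranked 9675, 4788 and 6551. Only the shared intergenic region was among the strongest 6622 of all 3 replicates, and its position does not assign it to either gene.

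At 2 of the 3 elongation factor genes Smox regions of middle rank lay on a promoter. At eEF2 (FBgn0000559; 2L from 21677913 to 21682164, minus strand) the only thresholded summit lay 5 bp downstream of a TSS, in the 5′ UTR of 1 transcript, at rank 2311. It ranked 3225, 1946 and 2078 (mean 2416 ± 703, SD, n = 3). At eEF1alpha1 (FBgn0284245; 2R, plus strand), a summit 80 bp upstream of the third of its 4 TSSs had rank 2508. Its replicate ranks were 3884, 3882 and 1624 (mean 3130 ± 1304, SD, n = 3), with replicate 3 the strongest. A summit 1477 bp upstream of the gene, in an intron of the protein disulfide isomerase gene ERp60, had rank 2711 and ranked 2497, 3384 and 2919. At the first eEF1alpha1 TSS the pooled region was weaker, with rank 8094, and replicate 3 had no region there. The median best rank of the 5 bound genes was 2311, against 2331 for all 2639 bound protein-coding genes.

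At eEF1gamma (FBgn0029176; 3R from 29220172 to 29222109, plus strand) the strong peak lay away from the gene. The peak of pooled rank 16 spanned 609 bp, from 29214037 to 29214645, and ranked 17, 16 and 22 in the replicates. Its summit was 5737 bp upstream of eEF1gamma, outside the window, although eEF1gamma has the nearest protein-coding TSS. The summit lay 127 bp upstream of lncRNA:CR31044, a noncoding gene that ends 505 bp before eEF1gamma and spans the microRNA genes mir-279 and mir-996, which start 1150 bp and 2749 bp after the summit. These noncoding genes are named after their positions were seen. Inside the window the only thresholded summit had rank 5730, 4784 bp upstream of eEF1gamma and 197 bp before mir-279. It ranked 5198, 7391 and 11687 (mean 8092 ± 3301, SD, n = 3), so only replicate 1 placed it among its strongest 6622.

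The eEF1gamma promoter differed between the lists. Replicate 2 listed a region of 253 bp with its summit 49 bp upstream of the TSS at rank 576, and replicate 3 listed one of 183 bp with its summit 45 bp upstream at rank 575. Neither the pooled list nor replicate 1 had an overlapping region among its 30000. Both of these regions were narrower than the median region of their lists, 430 bp in replicate 2 and 410 bp in replicate 3. This site was picked out after its values were seen. Ranked by q-value, the region was 2899 in replicate 3. In replicate 2 its q-value was tied with that of the strongest Lk6 region, and ties kept the order of the scores. Its q-value rank of 576 there repeats the score rank.

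**Figure D3:**
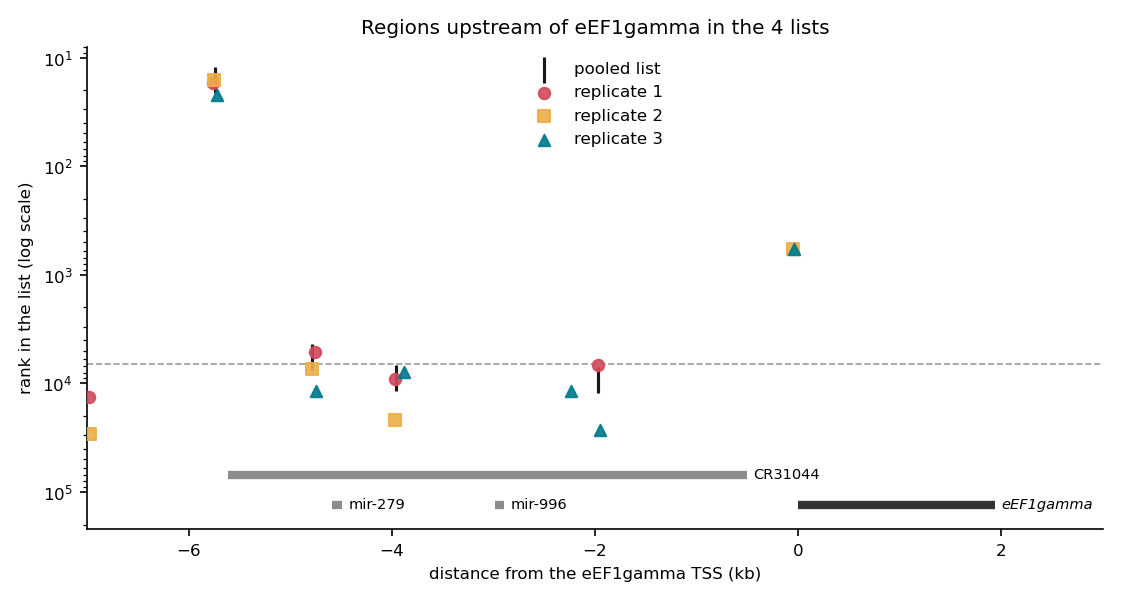
Regions upstream of eEF1gamma in the pooled list (black bars) and in replicates 1, 2 and 3 (circles, squares and triangles). The x axis is the distance of the summit from the TSS in kb and the y axis is the rank on a log scale with the strongest at the top; the dashed line is rank 6622 and grey bars mark CR31044 and its microRNAs. The rank 16 peak sits before the start of CR31044 in all 4 lists, while the promoter region appears in replicates 2 and 3 alone.

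Genes most like the 3 regulators in their ranks were found by the mean absolute difference in log2 rank over the 3 replicates, among 2840 protein-coding genes and with each peak used once. For Lk6 they were the chromatin protein gene Chro, with ranks 10, 10 and 8, CG1888, with 6, 11 and 9, and the RNA-processing enzyme gene PNPase, with 4, 5 and 3. Their differences from Lk6 were 0.48, 0.49 and 0.76 on the log2 rank scale. For larp they were Tcs5, a gene of tRNA modification, with ranks 18, 26 and 10, then CG9147, with 29, 17 and 20, and CG8320, with 28, 36 and 17. The differences from larp were 0.36, 0.41 and 0.43. For Thor they were bru1, which encodes a translational repressor, the amino acid transporter gene mnd, and mthl12. Their differences from Thor were 0.03, 0.08 and 0.09, and bru1, the closest, ranked 6846, 9204 and 13884.

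The sequence under the 15 summits ranged widely in base composition. The median GC content of these windows was 36.4%, from 20.5% at the second Lk6 summit to 51.7% at the eIF4A region inside chic. All 6600 thresholded windows had a median of 32.5%, with 5th and 95th percentiles of 23.2% and 47.7%. The rank 6 window of Lk6 had 31.8%, the rank 18 window of larp 35.1%, the eEF2 window 45% and the Thor window 45%. The eEF2 window is longer than the stretch of eEF2 printed, which has 30.8%. Within 150 bp of the summit, eEF2 had 40.2%, close to the 39.2% of Lk6 and the 39.5% of larp. The promoter window of eIF4G1 had 27.8% within 75 bp, so the promoter windows of the 9 genes did not share a high GC content.

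Short elements were present in the 15 windows in numbers too small to compare. A SMAD box, the short sequence that SMAD proteins contact, was in 7 of 15 windows and in 41.2% of all windows, and the eIF4A region inside chic held 4 copies. The BEAF-32 core was in 4 of 15 (17.5% of all), the GATA site in 4 (33%), the TATA box in 3 (32%) and the homeodomain core in 1 (14.8%). The GC-rich SMAD element was found at the eIF4A summit of rank 5141, and 1.53% of all windows held it. The M1BP motif was found at the eEF1alpha1 promoter (0.955% of all windows) and the E-box at eEF2 (0.939%), while the DRE was in 0 of 15 windows (1.14% of all).

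**Figure D4:**
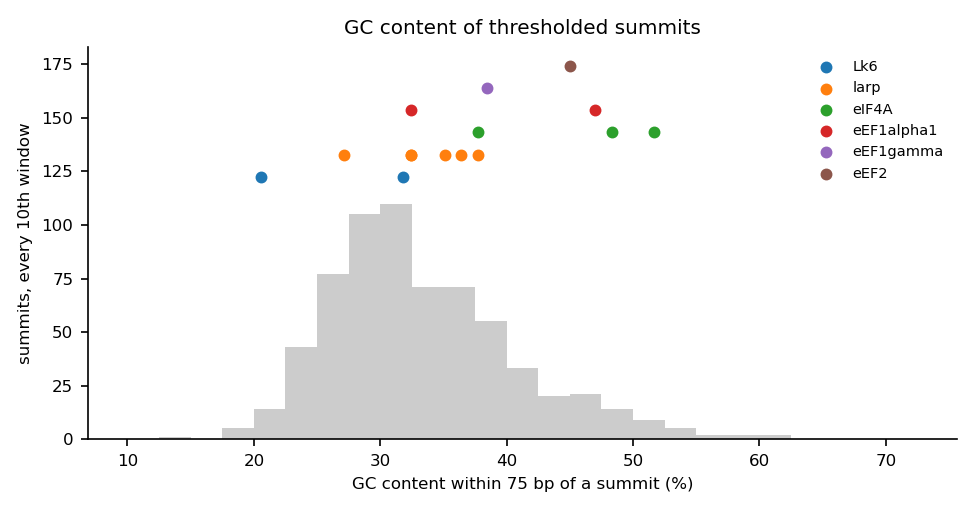
GC content within 75 bp of thresholded summits. Grey bars count every 10th of the 6600 windows, and coloured points mark the 15 summits of the 6 genes that have any, with a row per gene whose height has no meaning. The points run from 20.5% at Lk6 to 51.7% at eIF4A.

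Other genes of the translation apparatus were read from 4 lists, which were also drawn up with earlier results of these data known. Of 87 genes, 22 (25.3%) were bound by the 1 kb measure, beside the 18.9% of all protein-coding genes. The strongest 6622 regions of the replicates gave 27.6%, 29.9% and 32.2% (mean 29.9% ± 2.3, SD, n = 3), where all protein-coding genes gave 20.7%, 20.6% and 22%. Of the 22 genes, 19 also had such a summit in every replicate. For 13 of the 22 their own TSS was the nearest protein-coding TSS, and for the other 9 the TSS of a neighbour was as near or nearer.

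Cap-complex and mRNA-binding regulators had the highest share, 8 of 17 (47.1%; 54.9% ± 3.4, SD, n = 3, in the replicates). They were also long, with a median of 8702 bp, and the role of length in this share was not tested. The translational repressor gene brat had rank 183 and ranked 193, 171 and 186. Both CPEB genes were bound, orb2 at rank 421 and orb at rank 1165, but GNBP3 and Cdc16 had the nearer TSS. The poly(A)-binding protein gene pAbp had rank 641 and ranked 716, 733 and 441. The gene 4E-T, of an eIF4E-binding protein, and the repressor gene bru1 had no thresholded summit within 1 kb of a TSS. In the gene or within 5 kb bru1 had 1 thresholded summit, at rank 3263. Its strongest pooled region within 1 kb of a TSS had rank 7679.

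Initiation factors had 8 of 42 genes bound (19%; 20.6% ± 4.96, SD, n = 3). The gene eIF2Bbeta, for a subunit of the exchange factor of eIF2, had rank 2, but at 675 bp from its TSS, while Ugalt lay 44 bp from that summit. The ribosome-subunit factor gene eIF6 had rank 65, 106 bp from its own TSS, and ranked 70, 106 and 40. The cap-binding repressor gene eIF4EHP had rank 406, with the TSS of CG18428 nearer, and eIF3h had rank 1041, at its own promoter. The reinitiation factor gene DENR was not bound in the thresholded list or in the strongest 6622 regions of any replicate. The start-codon factor gene eIF1 was not bound in the thresholded list but had summits at that distance at ranks 787 and 2450 in replicates 2 and 3.

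Of the remaining elongation and termination factor genes 2 of 8 were bound (25%; 33.3% ± 14.4, SD, n = 3). They were the release factor genes eRF1, at rank 1961, and eRF3, at rank 2966, both at their own promoters, while eEF1alpha2 and eEF1beta had no such summit. Cytosolic aminoacyl-tRNA synthetase genes had 4 of 20 bound (20%; 26.7% ± 7.64, SD, n = 3). Of these AlaRS, at rank 2404 and 20 bp from its TSS, was itself the nearest gene. SerRS at rank 534, GluProRS at rank 807 and AspRS at rank 1175 shared their summit with a nearer neighbour, CG17260, AP-1sigma and Nmda1 respectively, and GluProRS was not bound in replicate 2. The genes alpha-PheRS and ArgRS were not bound in the thresholded list, and ArgRS had a summit by the 1 kb measure in replicate 1, at rank 4657.

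**Figure D5:**
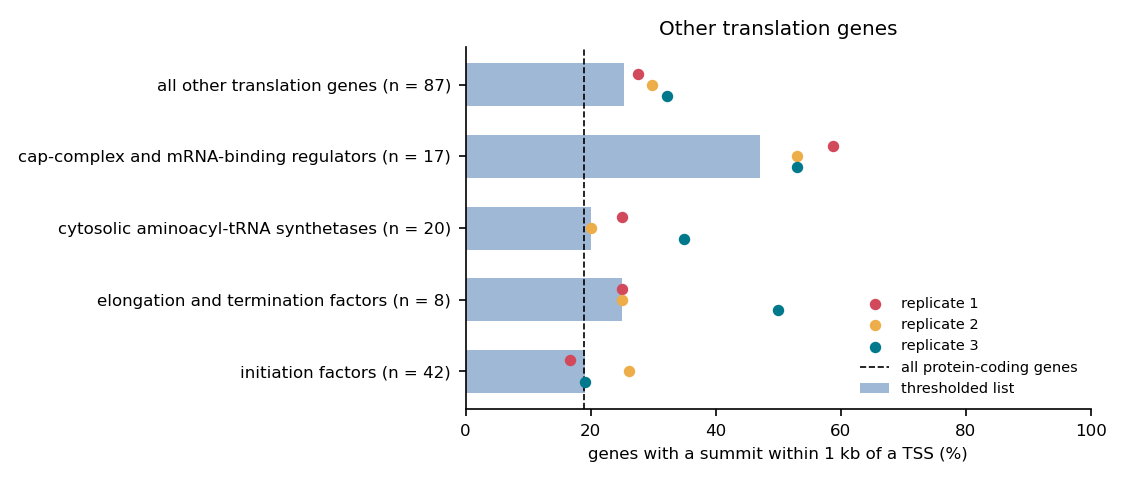
Share of bound genes, in percent (a summit no more than 1 kb from a TSS), for 87 other translation genes and their 4 lists. Bars are the thresholded list, points are the strongest 6622 regions of replicates 1, 2 and 3, and the dashed line is the 18.9% of all protein-coding genes in the thresholded list. The cap-complex and mRNA-binding regulators reach 47.1%, the other 3 lists between 19% and 25%.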

How the data were processed

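Smox-GFP ChIP-seq regions of 3 biological replicates of white prepupae were analysed, with replicate numbers from the labels. Per the deposited file listings, the authors called regions on each replicate and on the pooled replicates against 1 control alignment and derived the thresholded list by irreproducible discovery rate (IDR). The aligner, caller, IDR cutoff and kind of control were not given in the sources used here. A line as deposited holds an interval, a caller score of unstated scale, a −log10 q-value and a summit offset in bp; the p-value column is not filled. Scores served only to rank regions within a list. The thresholded list was found to hold exactly the 6622 highest-scoring pooled regions. As a check for duplicate deposits, 292 intervals were the same in replicates 1 and 2, with 0 scores in common, and no interval was the same in other pairs. Read counts are not held by the lists, so depth is unknown and no intervals on counts are given.

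Coordinates are dm6, with chromosome ends compared with Release 6, and genes are from Ensembl release 115 (BDGP6.54). Replicate regions were matched to a pooled region by an overlap of at least 1 bp, taking the strongest; SDs are over 3 replicates. Lists based on dm3 were not used here. The 9 genes and the 4 gene lists were chosen with earlier results of these data known. One listed gene was not matched and 1 was matched through an older symbol. Of the 9 genes, those with a thresholded summit are described in full and the others by their strongest pooled region, with the 3 genes most alike in rank for Lk6, larp and Thor. Of each other list, up to 4 bound genes with the strongest summits and up to 2 unbound genes in alphabetical order, ignoring case, are named, and neighbours are named where they have the nearest protein-coding TSS. Windows of 75 bp either side of a summit were searched for sequence elements. There was 1 group and no contrast, so no test was run. Functions were checked on planted data. Python 3.11.15, pandas 2.3.3, numpy 2.4.6 and matplotlib 3.10.9 were used. Alternatives were other windows, the strongest 1000 peaks, ranking by q-value, other matching and leaving out each replicate.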

Additional observations from a re-analysis of the deposited data

How the results depend on the processing

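No paired analysis was possible because there was 1 group and no contrast. Of 73 alternative values, 64 stayed within 1.5 times the reported count, or within 1 SD of the reported value, and 9 moved. Some of the 64 could not have moved. A mean rank with a replicate left out always lies within 1 SD of the full mean, because the SD is of the same replicates. The count from the top of the pooled list by score was also fixed, because those regions are the thresholded list. In each replicate the strongest regions of Lk6 and larp had the same q-value, and ties kept the order of the scores. Ranking by q-value was therefore no separate check for these 2 genes. The 64 therefore overstate how stable the results are. With the strongest 1000 peaks alone, 2 genes (Lk6 and larp) kept a summit within 5 kb and 2 within 1 kb of a TSS. The share of the other translation genes by the 1 kb measure was then 9.2%, and no share of all protein-coding genes was formed for it. With all thresholded peaks, 47.1% of the other translation genes had a summit in the gene or within 5 kb, beside 42.9% of all protein-coding genes. Counting gene bodies alone left 9 of 15 summits. Ranked by q-value, the mean replicate rank of eIF4A was 1678 and that of eEF2 was 3132; the cause was not tested. Windows of 150 bp either side gave a median GC content of 39.5%, beside 36.2% for all thresholded windows of that size. A SMAD box was then in 11 of 15 windows, beside 68.7% of all windows. The thresholded list was not remade with a replicate left out. Leaving out each replicate in turn, genes were counted that had a summit among the strongest 6622 regions of both other replicates. This gave 6 to 7 genes within 5 kb and 5 to 6 within 1 kb, with no share of all protein-coding genes formed. The mean ranks then ranged from 6.5 to 7 for Lk6, 18 to 21 for larp, 7993 to 11890.5 for Thor, 14076.5 to 14963.5 for eIF4G1 and 4078 to 4522 for eIF4A. They ranged from 2753 to 3883 for eEF1alpha1, 6294.5 to 9539 for eEF1gamma and 2012 to 2651.5 for eEF2. No mean was formed for eIF4E1, which was matched in 2 replicates. Ranks carry no error of their own, depth is unknown, and a rank below 6622 in 1 list does not show absence of binding.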

Other observations

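Some regions near these genes were strong in a replicate and overlapped no pooled region. They were picked out after their values were seen. Upstream of Thor, replicate 2 listed a region at rank 2625 and replicate 3 one at rank 3930, with summits 13 bp and 10 bp before the TSS of lncRNA:CR45372 and at -3082 bp and -3079 bp from Thor, while replicate 1 had none there. Near eIF4E1, replicate 1 alone listed a region at rank 3605, whose summit lay 25 bp before a TSS of CG4080. With the eEF1gamma promoter, these were the only such regions among the strongest 6622 of any replicate in the windows of the 9 genes. Over the whole genome, 424 (6.4%), 378 (5.71%) and 571 (8.62%) of the strongest 6622 regions of replicates 1, 2 and 3 overlapped no pooled region. Among the first 1000 of each replicate there were 20, 18 and 30 of them. Of these genome-wide regions, 277, 235 and 295 were also overlapped by a region among the strongest 6622 of another replicate.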
